A study of Arabidopsis thaliana with 12 samples.

Results

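The 6 nuclear genes described here are AT4G31530, AT2G27290, AT4G17070, AT3G52070, CUTA (AT2G33740) and AT1G16080. On a hybridization array they were bright in wild-type Arabidopsis thaliana and much dimmer in the psbs mutant, as were some other genes. The 6 were chosen by name, from the psbs and WT intensities described here, so their difference between the groups is a description and was not tested. Each was measured by 1 feature that the platform annotation assigns to that gene alone, and these 6 are among 692 such features in a table of 3439. All 6 matched a locus of the TAIR10.1 gene list, and no pair of them are neighbours in it: 1931 genes lie between AT4G17070 and AT4G31530, and 827 between AT2G27290 and CUTA.

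The samples were 6 of the psbs mutant and 6 of wild type (WT), both of ecotype Columbia 0, from which total RNA was hybridized. The mutant lacks PSII-S, also called PsbS, and the comparison asks which transcripts differ without it. The labels give no mutant allele, tissue, age or light regime, and give no word on separate plants for the replicates, so the spread within a group, and every p-value, may be technical. In an RNA extract of whole material, fewer cells of a type and less RNA per cell cannot be told apart.

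PsbS is a thylakoid membrane protein of photosystem II. When light exceeds what photosynthesis can use, the thylakoid lumen becomes acidic, and PsbS senses this and switches the antenna to a state that releases absorbed energy as heat. The labels describe it as a Photosystem I protein, although the name PSII-S places it with photosystem II. Plants without PsbS still harvest light and grow, but lack the rapid part of this heat release.

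Whether the products of the 6 genes share a pathway was not examined. AT4G31530 encodes a protein of the NAD(P)-binding Rossmann-fold superfamily, a fold that holds the cofactors of many reductases and dehydrogenases. AT2G27290 encodes a FAM210B-like protein, of a family defined by a conserved domain of unknown function. AT4G17070 is annotated as a peptidyl-prolyl cis-trans isomerase, a class of enzymes that help proteins fold by turning the bond before proline. CUTA encodes a chloroplast copper-binding protein related to the bacterial CutA1 proteins of metal tolerance. No role is given here for AT3G52070 and AT1G16080.

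The signal scales of the groups differed, which bears on every value below. Intensities ran from 0 to 100 in arbitrary units as deposited. The median over all features lay between 0.0233 and 0.0361 in the psbs samples and between 0.304 and 0.379 in the WT samples, a 10.7-fold difference of the group means of these medians, whereas the summed intensity differed only 1.246-fold (2509 to 2674 in psbs and 2972 to 3552 in WT). Most features were thus dimmer in psbs as deposited, and each gene is therefore given as deposited intensity, as rank among the 3439 features of its own sample, where 1 is the brightest, and as a multiple of its own sample's median. A rank compares signals of features, not amounts of different transcripts. All 6 genes had a signal above 0 in at least 1 sample, none was at the top of the scale, and no 2 samples had identical values. Precision is limited by having 6 samples in each group. Hybridization batches are not labelled, and a batch that coincided with genotype cannot be told apart from it.

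AT4G31530 had intensities of 0.835, 0.878, 3.55, 3.48, 3.30 and 3.51 in psbs replicates 1 to 6, against 43.2, 47.1, 63.4, 65.1, 52.7 and 54.3 in WT replicates 1 to 6. The groups did not overlap, and psbs replicates 1 and 2 were lower than the other psbs samples. The mean was 2.59 ± 1.35 in psbs and 54.3 ± 8.69 in WT (SD, n = 6 each), so psbs held 4.77% of the WT mean. Its rank was between 100 and 275 in psbs and between 6 and 11 in WT. In the ranking the feature therefore left the brightest 11 but stayed within the brightest 7.997% of features in every psbs sample. Its share of a sample's summed intensity was 0.0997% ± 0.0519 in psbs and 1.69% ± 0.341 in WT (SD, n = 6 each).

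AT2G27290 had intensities of 1.75, 1.63, 4.44, 4.87, 4.47 and 4.78 in psbs replicates 1 to 6, against 37.4, 37.3, 40.4, 43.8, 38.9 and 39.6 in WT replicates 1 to 6. The groups did not overlap, and replicates 1 and 2 were again the low psbs samples. Its WT values were the tightest of the 6 genes, with a coefficient of variation of 6.07%, against 41.9% in psbs. The mean was 3.66 ± 1.53 in psbs and 39.6 ± 2.40 in WT (SD, n = 6 each), which leaves 9.24% of the WT mean. The rank was 86 to 182 in psbs, and in WT it was 13 in 5 samples and 11 in WT replicate 6.

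AT4G17070 had intensities of 0.851, 0.891, 2.92, 3.06, 2.01 and 3.09 in psbs replicates 1 to 6, against 19.998, 23.2, 16.3, 17.5, 11.1 and 22.0 in WT replicates 1 to 6. The groups did not overlap, replicate 5 was the lowest WT sample, and replicates 1 and 2 were the low ones in psbs. The mean was 2.14 ± 1.06 in psbs and 18.4 ± 4.40 in WT (SD, n = 6 each), or 11.6% of the WT mean. The rank was 114 to 271 in psbs and 16 to 26 in WT.

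AT3G52070 had intensities of 0.0265, 0.0213, 0.0281, 0.0339, 0.0508 and 0.0278 in psbs replicates 1 to 6, against 4.76, 4.59, 3.40, 3.45, 3.08 and 3.06 in WT replicates 1 to 6. The lowest WT sample was 60.3 times the highest psbs sample, the widest such gap among the 6 genes. The mean was 0.0314 ± 0.0103 in psbs and 3.72 ± 0.757 in WT (SD, n = 6 each), or 0.843% of the WT mean. The rank was 1461 to 1905 in psbs, around the middle of the features, and 89 to 113 in WT.

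CUTA was listed at 0 in psbs replicates 1 and 5 and had intensities of 0.00963, 0.0171, 0.0135 and 0.0424 in psbs replicates 2, 3, 4 and 6, against 2.65, 3.02, 1.93, 2.25, 1.38 and 1.501 in WT replicates 1 to 6. The meaning of a listed 0 is not given in the sources used here, so any psbs mean of CUTA used below or plotted, which counts it as 0, is a description only. The lowest WT sample was 32.6 times the highest psbs sample, replicate 6. The rank in WT was 136 to 290, the lowest of the 6 genes there. In the 4 psbs samples with a signal it was 1607 to 2161, and in replicates 1 and 5 the feature was among 1140 and 930 features listed at 0.

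AT1G16080 had intensities of 0.373, 0.365, 0.0454, 0.0283, 0.00295 and 0.0331 in psbs replicates 1 to 6, against 4.06, 4.92, 4.94, 4.86, 2.44 and 3.74 in WT replicates 1 to 6. The groups did not overlap, but here replicates 1 and 2 were the high psbs samples, opposite to AT4G31530, AT2G27290 and AT4G17070. The mean of 0.141 ± 0.177 in psbs has an SD above the mean itself, against 4.16 ± 0.984 in WT (SD, n = 6 each). The rank was 440 and 455 in psbs replicates 1 and 2, 1533 to 2443 in the other psbs samples, and 79 to 138 in WT.

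**Figure D1:**
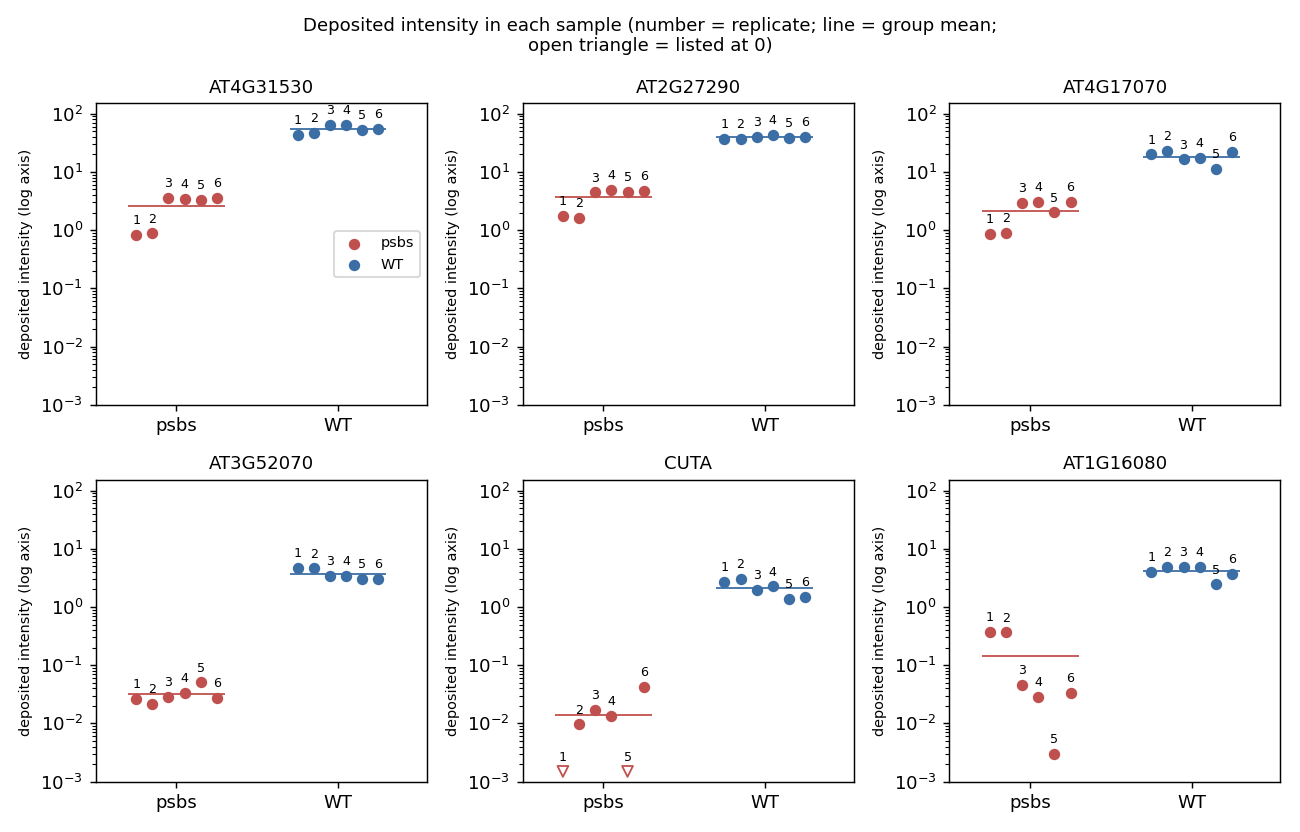
Deposited intensity (arbitrary units, log axis) of each of the 6 genes in the 6 psbs samples (red) and the 6 WT samples (blue), with the replicate number above each point, a line at the group mean, which counts values listed at 0 (open triangles) as 0. No gene's groups overlap. psbs replicates 1 and 2 are low for AT4G31530, AT2G27290 and AT4G17070 and high for AT1G16080.

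**Figure D2:**
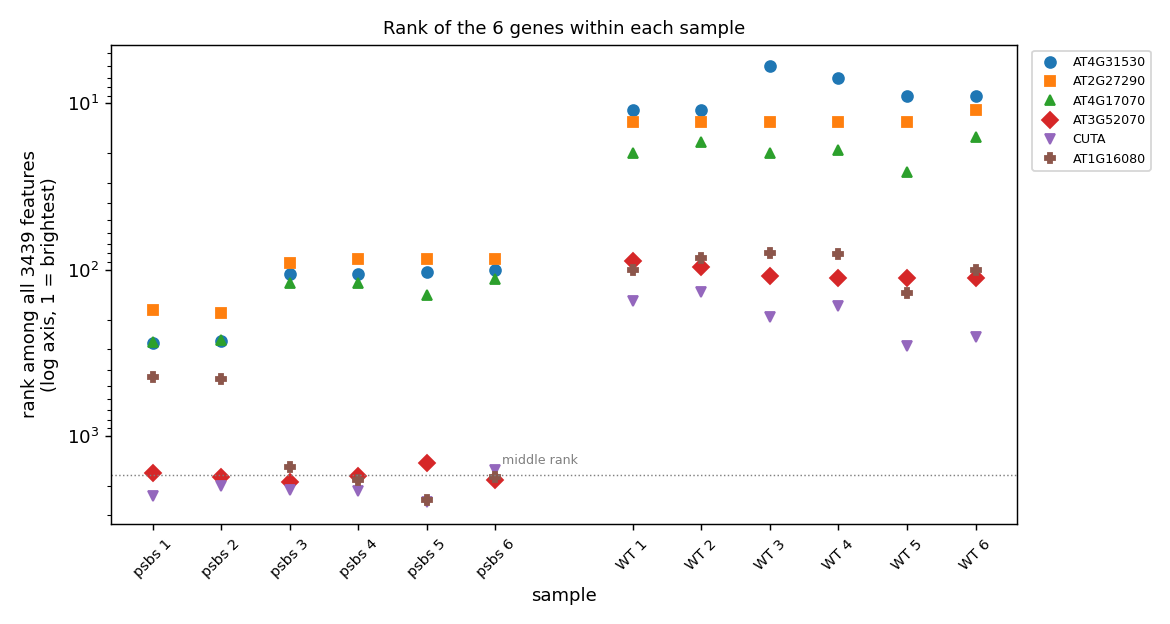
Rank of each gene's feature among all 3439 features of the same sample (log axis, 1 is the brightest), with psbs samples on the left and WT samples on the right and a dotted line at the middle rank; features listed at 0 in a sample share the first rank after all those with a signal. AT4G31530, AT2G27290 and AT4G17070 lie between 86 and 275 in psbs and between 6 and 26 in WT, while AT3G52070 and CUTA lie between 1461 and 2510 in psbs.

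The 6 genes thus made a pair of rank patterns. AT4G31530, AT2G27290 and AT4G17070 were among the 26 brightest features of every WT sample and remained among the 275 brightest of every psbs sample. AT3G52070 and CUTA were at ranks 89 to 290 in WT and at 1461 or beyond in psbs, and AT1G16080 was like them in psbs replicates 3 to 6 but not in replicates 1 and 2.

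As deposited, all 6 genes had every psbs sample below every WT sample, but so did 67.3% of the 3359 features with any signal. limma (adjusted p under 0.05 after quantile scaling) called all 6 lower in psbs, and 29.1% of the features tested. Neither count is evidence about these genes, which were chosen on this contrast.

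Set against its own sample's median, the picture differed between the genes. AT2G27290 was at 71.7, 69.9, 123, 139, 125 and 133 times the median in psbs replicates 1 to 6, against 98.8, 98.6, 121, 130, 128 and 129.8 times in WT replicates 1 to 6. On this scale its groups overlapped, with the highest and the lowest values both in psbs. AT4G17070 likewise overlapped, at 34.8 to 87.3 times the median in psbs and 36.7 to 72.2 times in WT. AT1G16080 overlapped through psbs replicates 1 and 2, which were at 15.3 and 15.7 times the median, above the WT range of 8.03 to 14.8, whereas the other psbs samples were at 0.0827 to 1.26 times.

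The remaining genes were apart on this scale too. AT4G31530 was at 34.2 to 99.3 times the sample median in psbs and 114 to 194 times in WT. AT3G52070 was at 0.775 to 1.42 times in psbs and 10.04 to 12.6 times in WT. CUTA was at 0 to 1.18 times in psbs and 4.55 to 7.99 times in WT. On this scale 3 of the 6 genes were lower in every psbs sample, against 12.8% of all features with any signal. This count is no evidence about the 6 genes either, since they were chosen on this contrast.

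The log2 difference after quantile scaling, psbs minus WT, was -4.58 ± 0.35 (SE) for AT4G31530, -3.64 ± 0.26 for AT2G27290 and -3.51 ± 0.29 for AT4G17070. It was -4.29 ± 0.12 (SE) for AT3G52070, -4.02 ± 0.35 for CUTA and -3.96 ± 0.49 for AT1G16080. The SE takes the 12 samples as independent. Quantile scaling put all 6 genes within 1.07 log2 units of each other. Fitted as deposited, they ran from -3.26 for AT4G17070 to -7.03 for CUTA, against a median of -2.86 over all features tested. That fit also raised zeros and low values to the 5th percentile of positive intensities. This floor set CUTA in psbs replicates 1, 2 and 5 and AT1G16080 in psbs replicate 5, and can understate differences of dim features. As deposited, AT4G17070 was thus 0.40 and AT2G27290 0.71 log2 units below the median feature, and AT3G52070 and CUTA 4.06 and 4.16 below it.

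The order of the genes followed the scaling. After cyclic loess AT4G31530 had the widest difference, at -5.85, and CUTA the smallest, at -3.84. With each sample centred on the median of its values above 0, AT4G17070 was at -0.65 and AT2G27290 at -0.96, against a median of -0.41 over all features tested. With each sample centred on the median of all its values, listed zeros included, AT4G17070 was higher in psbs, at 0.18, and AT2G27290 was at -0.14. The 5 genes other than AT4G17070 were lower in psbs under each of the 6 scalings tried.

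**Figure D3:**
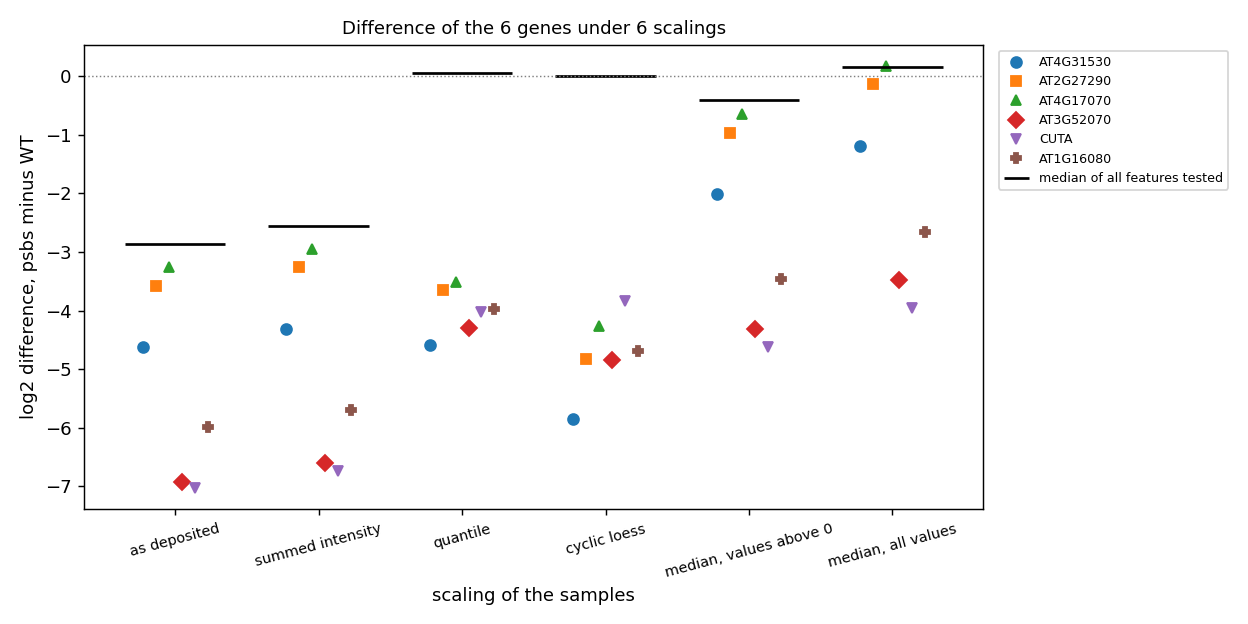
Log2 difference, psbs minus WT, of each gene (coloured symbols) and of the median feature (black bars) under 6 scalings of the samples. AT3G52070, CUTA and AT1G16080 lie well below the bar under all 6, whereas AT2G27290 and AT4G17070 lie within 1 log2 unit of it except after quantile scaling and cyclic loess.

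Ratios between features of the same sample do not depend on dividing a sample by any constant. The ratio of AT4G31530 to AT2G27290 was 0.476, 0.540, 0.799, 0.714, 0.738 and 0.735 in psbs replicates 1 to 6, against 1.15, 1.26, 1.57, 1.48, 1.35 and 1.37 in WT replicates 1 to 6. The psbs and WT ratios did not overlap. How often ratios of other feature pairs separate the groups was not examined. The genes were also chosen on these intensities, so non-overlap of their ratios is a description only. An unequal change of these features would follow only if samples differed by a constant factor, which was not tested. The ratio of AT2G27290 to AT4G17070 was 1.52 to 2.22 in psbs and 1.61 to 3.49 in WT and did overlap. The ratio of AT4G31530 to AT4G17070 was 0.981 to 1.64 in psbs and 2.02 to 4.73 in WT, again without overlap.

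Spread within a group was not used to choose the genes. The SD of scaled log2 values among psbs samples was 0.84 for AT4G31530, 0.67 for AT2G27290, 0.68 for AT4G17070, 0.19 for AT3G52070, 0.77 for CUTA and 1.22 for AT1G16080, beside a median of 0.67 over all features tested. Among WT samples it was 0.37 for AT4G31530, 0.07 for AT2G27290, 0.27 for AT4G17070, 0.18 for AT3G52070, 0.47 for CUTA and 0.40 for AT1G16080, beside a median of 0.18. On this scale AT3G52070 had nearly equal SDs in psbs and WT, but as deposited its coefficient of variation was 32.8% in psbs and 20.3% in WT. AT1G16080 had the largest psbs SD and coefficient of variation (125%) of the 6.

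Consecutive replicate numbers carried like deposited intensities for some of the genes. The comparisons of pairs that follow are of deposited intensity unless another scale is named. psbs replicates 1 and 2 lay below the other 4 psbs samples for AT4G31530, AT2G27290, AT4G17070 and AT3G52070 and above them for AT1G16080, where 20.7% of all tested features lay below and 16.7% above. In WT, replicates 1 and 2 lay below the other 4 samples for AT4G31530 and AT2G27290 and above them for AT3G52070 and CUTA, beside 5.001% and 40.04% of all tested features. WT replicates 5 and 6 lay below the other 4 for AT3G52070, CUTA and AT1G16080, as did 33.4% of features. WT replicates 3 and 4 lay above the other 4 for AT4G31530 and AT2G27290, beside 7.29% of features. psbs replicates 3 and 4, and psbs replicates 5 and 6, lay apart from the other 4 for 0 of the 6 genes. Some of these patterns were absent by rank. AT3G52070 was at ranks 1671 and 1761 in psbs replicates 1 and 2, inside its psbs range of 1461 to 1905. AT2G27290 was at rank 13 in WT replicates 1 to 5, so neither of its WT pairs stood apart. WT replicates 5 and 6 included a tie with another WT sample for AT3G52070 (rank 112) and AT1G16080 (rank 101). In psbs, AT3G52070 and CUTA differed more within consecutive pairs (mean difference of 0.26 and 1.10 in scaled log2) than between them (0.21 and 0.85). The part of such pairs in these values was not tested. Were such pairs repeat measurements of 1 extract, a group would hold fewer than 6 independent values.

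Without psbs replicates 1 and 2, the log2 difference after quantile scaling was -4.02 for AT4G31530, -3.23 for AT2G27290, -3.01 for AT4G17070, -4.07 for AT3G52070, -3.72 for CUTA and -4.46 for AT1G16080. All 6 were therefore still lower in psbs, with AT1G16080 further down and the other 5 less so.

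Among features of a single gene, 40 had a mean WT intensity at or above that of CUTA, the dimmest of the 6 genes in WT. In the order of the psbs share of the WT mean, CUTA, at 0.648% with its listed zeros counted as 0, and AT3G52070 came first, and AT1G16080, at 3.39%, came next. These shares depend on few samples: CUTA was at 0.379% without psbs replicate 6, and AT1G16080 at 0.659%, below the 0.843% of AT3G52070, without psbs replicates 1 and 2. AT3G03890 followed at 3.41%, and AT4G17070, the last of the 6, stood in place 19. The first 19 places held 13 genes that are not among the 6, so the choice did not take every bright gene with as large a decrease. Just inside and just outside the highest share were AT1G73120 at 11.5% and AT2G19280 at 16.3%.

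Over all 40 features the median share was 16.4% of WT, with 29 lower and 11 higher in psbs as deposited. Of the 18 features on the whole array with a mean WT intensity at least that of AT4G17070, 12 were lower and 6 higher, with a median share of 39.8%. At or below the share of AT4G17070 were 4 of these, 3 of them among the 6 genes. That these 3 are included is fixed in advance, because AT4G17070 has the highest share of the 6 genes. Over the 3070 tested features with any WT signal the median share was 12.01%, close to that of AT4G17070.

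**Figure D4:**
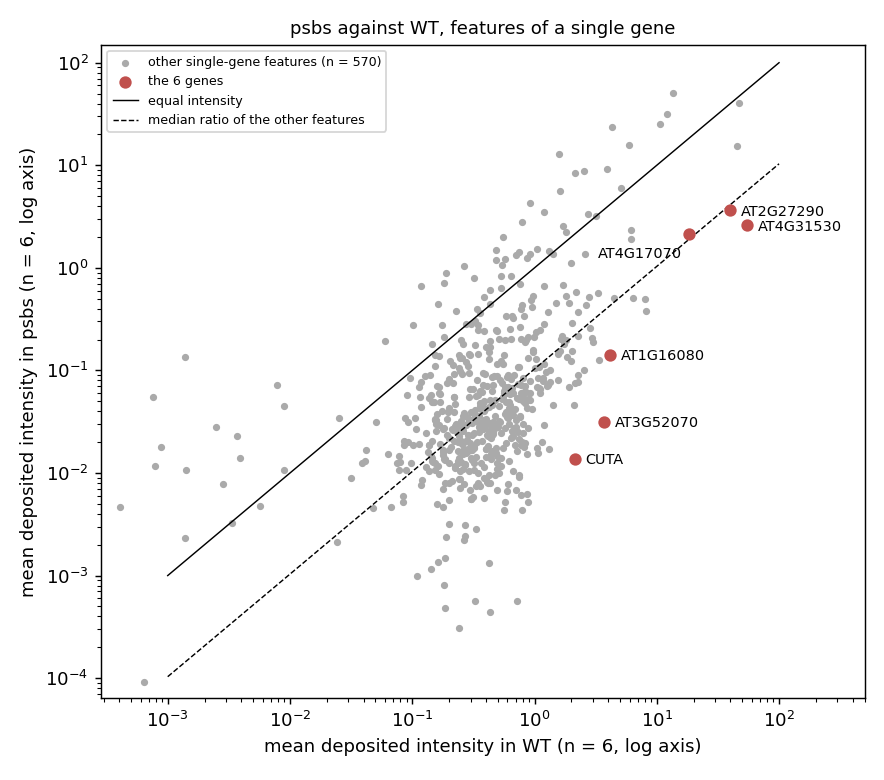
Mean deposited intensity in psbs against WT (arbitrary units, both axes logarithmic, n = 6 each) for the 6 genes (red) and 570 other single-gene features with a signal in both groups (grey), with lines at equal intensity and at the median ratio of the grey features, 10.3%. AT2G27290 and AT4G17070 lie close to the dashed line at the bright end, and AT3G52070 and CUTA lie furthest below it among the red points.

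The genes whose scaled profile over the 12 samples was nearest to the mean profile of the 6, by root mean square difference in log2 units among 668 candidates, were AT1G76450 (0.31), AT4G19900 (0.48), AT4G32060 (0.63), NdhS (1.26) and CCL (1.33). AT1G76450, which encodes a thylakoid protein with a PsbP domain, was at 0.172 to 0.518 in psbs and 6.59 to 11.04 in WT. AT4G19900 was at 0.176 to 0.705 in psbs and 6.63 to 8.54 in WT. NdhS, a subunit of the chloroplast NADH dehydrogenase-like complex of cyclic electron flow, was at 1.42 to 2.28 in psbs and 5.06 to 6.95 in WT. The 6 genes were themselves 1.49 to 2.68 log2 units from their mean profile. The 5 were picked as the nearest of all candidates, so their being nearer than the 6 genes is no finding. The mean profile matches none of the 6, whose mean scaled log2 values in WT ran from 0.79 for CUTA to 5.90 for AT4G31530.

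Genes related by function to CUTA and AT4G17070 were few on the array. Of 23 genes of copper handling 1 was measured on a feature of its own. This was CCS, the copper chaperone that loads copper/zinc superoxide dismutase, at 0.0269 to 0.0953 in psbs and 0.126 to 0.183 in WT. It was lower in every psbs sample as deposited (log2 difference -1.75, limma adjusted p = 0.000198), but rose after quantile scaling (1.63, limma adjusted p = 8.28e-06), so its direction depended on the scaling. Over all features tested 26.2% were called higher after quantile scaling.

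Of 43 genes of peptidyl-prolyl isomerases 3 were measured, of which 1 fell, 0 rose and 2 did not pass, where 29.1% of all features tested were called lower and 26.2% higher. The 3 had a median log2 difference of 0.33 beside 0.05 over all features tested. AT5G35100, a cyclophilin-type isomerase, fell: it was listed at 0 in 3 psbs samples and reached 0.0653 in the others, against 0.525 to 0.889 in WT (log2 difference -1.96, limma adjusted p = 0.00117). It was lower under each of the 6 scalings, from -1.33 after loess to -5.16 as deposited. AT5G13410, an FKBP-type isomerase, was at 0.0132 to 0.0583 in psbs and 0.246 to 0.311 in WT and did not pass (0.33, limma adjusted p = 0.176). AT1G74070, a cyclophilin-type isomerase, was at 0.184 to 0.596 in psbs and 0.647 to 1.011 in WT and did not pass (0.38, limma adjusted p = 0.106). As deposited both were called lower (limma adjusted p = 1.96e-06 for AT5G13410 and 0.00122 for AT1G74070), and with samples centred on the median of values above 0 AT1G74070 was called higher (1.16, limma adjusted p = 0.00855).

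The tissue could be checked only in part. Of 11 leaf marker genes 1 was measured, LHB1B2, a light-harvesting protein of photosystem II, at 27.3 to 34.3 in psbs and 8.73 to 15.6 in WT. Its log2 difference depended on the scaling. It was 1.39 as deposited, 0.65 after quantile scaling, -0.06 after cyclic loess and 4.83 centred on the median of all values. Of 6 root and 8 seed marker genes 0 had a feature of their own, so other tissues were not examined.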

How the data were processed

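Total RNA of 6 psbs and 6 WT samples was hybridized. The deposited table holds a linear intensity for each feature in each sample, between 0 and 100. How the authors scanned, background-corrected and scaled the arrays is not given in the sources used. Titles of the samples gave group and replicate number, and gene names came from the platform annotation, with locus tags from the TAIR10.1 list (names and gene order only).

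Samples were quantile normalized with exact 0 values kept at 0. Values were then raised to the 5th percentile of positive scaled values (0.0559) and put on the log2 scale. This floor sets the value of psbs replicates 1 and 5 for CUTA, and can understate changes of dim features. The fits under the other scalings, values as deposited included, used a floor at the same percentile. limma 3.58.1 in R 4.3.3 (lmFit, eBayes, Benjamini-Hochberg, threshold 0.05) was run on the 3359 features above 0 in at least 1 sample; 80 were at 0 throughout. The procedure was tested on simulated data. Figures used matplotlib 3.10.9 in Python 3.11.15.

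The 6 genes, the gene lists and the tests were chosen with earlier results of these data known. Named genes are the 6, the 5 nearest profiles, the bright single-gene features next to them in psbs share, and the measured list members. Alternatives changed the scaling, floor, filter, treatment of 0 values, replicate block, pairing of consecutive numbers and samples used. Centring on all values, scaling by summed intensity, and the shares of CUTA and AT1G16080 without single psbs samples were added after seeing the data.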

Additional observations from a re-analysis of the deposited data

Results flagged for a closer look

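Single samples standing apart within their group were sought for the 6 genes, on deposited intensity and on scaled log2 values. Of the 24 groups searched, chance alone would pick about 5%. For AT2G27290, WT replicate 6 had a scaled log2 value of 5.54, with the other 5 WT samples at 5.37. Those 5 share rank 13, so quantile scaling gave them 1 value. The deposited intensity of replicate 6, 39.6, lay inside the WT range of 37.3 to 43.8.

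A further feature lists AT4G31530 together with 2 other genes and so was not assigned to it or used above. Its intensity was 1.55 ± 0.113 in psbs and 0.757 ± 0.0810 in WT (SD, n = 6 each), with ranges of 1.37 to 1.68 in psbs and 0.660 to 0.860 in WT. It was thus higher in every psbs sample, opposite to the feature assigned to AT4G31530 alone. Which of the listed transcripts it measured was not tested.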

How the results depend on the processing

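The 6 genes were chosen for being lower in psbs, and most alternatives kept quantile scaling, so a tally of signs does not measure robustness. The averaging of consecutive numbers, the 6-sample filter and the replicate block keep the group means, so they could not change the 6 differences. Their values are counted in the tally that follows but carry no information on robustness. Of 138 log2 differences over 23 alternatives, 19 moved by at least the residual SD of their gene and 1 reversed sign. The 6 genes were negative in 137 of them and positive in 1: AT4G17070 at 0.18 with samples centred on the median of all values. Their median was -3.99 after quantile scaling, -5.31 as deposited, -5.00 scaled by summed intensity, -4.76 after cyclic loess, -2.74 centred on the median of values above 0 and -1.93 centred on the median of all values. limma called 1859 features after quantile scaling and 1558 to 2701 across the alternatives. The share of called features that were higher in psbs was 47.4%, against 9.18% as deposited, 10.6% scaled by summed intensity, 36.3% centred on values above 0 and 62.0% with 0 values missing, a fit that drops psbs replicates 1 and 5 for CUTA (-3.55). Of the 4 measured genes of the copper and isomerase lists 2 were called (55.3% of all features tested), and 4 as deposited (80.4%) or scaled by summed intensity (78.7%). With the replicate number as a block 1833 features were called, while the differences of the 6 genes were fixed by the balanced design. Deviations of same-numbered psbs and WT samples correlated at 0.0569 to 0.154, not above 0.1 for every number, so the numbers were not taken to pair the samples. With consecutive numbers averaged 1585 were called. CUTA lay near the floor in psbs, so its log2 difference is limited by it, as deposited as well as after quantile scaling.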
